A study of Sus scrofa with 12 samples.

Results

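The genes described here encode the protein subunits of the mitochondrial ribosome and the machinery that brings proteins into mitochondria, measured in pig aortic valvular interstitial cells. They were taken by name: a probe set, which is the group of array probes that reads 1 transcript, was a member if the platform annotation gave it exactly 1 gene symbol beginning MRPL or MRPS, TIMM or TOMM followed by a digit, and if 3 or more of the 12 arrays gave it a log2 value over 4. The name pattern found 99 probe sets, of which 96 passed this filter. They stand for 76 of the 6014 genes with 1 symbol that could be tested on the array. The 3 probe sets left out were 1 each of MRPL46, MRPL15 and MRPL52, whose highest log2 values over the 12 arrays were 3.48, 3.61 and 3.74. Each of these genes had another probe set among the members. A further 6 probe sets listed several symbols, among them MRPL22 and MRPL55, and were not used.

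Mitochondria keep ribosomes of their own, which translate the few proteins encoded by mitochondrial DNA, nearly all of them core subunits of the respiratory chain. The protein subunits of these ribosomes, like almost all mitochondrial proteins, are encoded in the nucleus, made in the cytosol and imported. The TOM complex is the gate in the outer membrane, the TIM23 complex takes proteins with a cleavable presequence across the inner membrane, the TIM22 complex inserts metabolite carriers into it, and small TIM chaperones escort hydrophobic proteins through the space between the membranes. Of the 76 genes, 36 were named for the large ribosomal subunit (MRPL), 22 for the small subunit (MRPS), 7 for TOM, 6 for the small TIM chaperones, 4 for TIM23 and 1 for TIM22.

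Valvular interstitial cells are the fibroblast-like cells that fill the heart valve leaflet. They were released with collagenase II from the aortic valves of adult pigs and studied in 4 groups of 3 biological replicates. P0 cells went straight from isolation to RNA extraction, with 0 passages and no culture. P2 cells had 2 passages on tissue culture plastic, were kept in 1% serum and were all collected on day 3. They were left untreated or received porcine TGF-β1, a signal that drives fibroblasts towards contractile, matrix-secreting myofibroblasts, at 5 ng/ml for the last 8 h or 24 h. Passage, plastic, medium and time out of the animal all differ between P0 and P2 and cannot be told apart. The labels do not say that replicates came from separate animals, so p-values measure the spread between these samples.

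The arrays were read as log2 expression values of 17638 tested probe sets, with array medians from 7.11 to 7.31. Fibroblast transcripts were abundant in every group: vimentin (VIM) had mean log2 values of 15.62 in P0 and 15.58 in untreated P2, and decorin (DCN) 14.98 and 13.34. The 12 measured fibroblast markers summed to a signal of 231800 to 236400 in P0 and 125500 to 140300 in untreated P2. By the test defined below, 8 of them fell, where 25.8% of all probe sets tested fell. S100A4, a calcium-binding protein, was the 1 fibroblast marker that rose, by log2 5.10 (SE 0.43). Markers of macrophages and of the cell cycle also differed. The summed signal of 11 measured macrophage markers was 9515 to 14190 in the P0 arrays and 1114 to 1531 in untreated P2, and that of 14 proliferation genes 1888 to 2193 and 10820 to 13650. Endothelial markers summed to 3386 to 4370 in P0 and 1216 to 6233 in untreated P2, where replicate 3 was the low array. Of 13 measured, 2 fell, a share not above the 25.8% of all probe sets, and 8 had positive values. In RNA from bulk cells, a lower signal from fewer cells of a type and from less RNA per cell cannot be told apart.

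Mitochondrial ribosome and import genes stood higher in cultured than in fresh valve cells almost throughout. In untreated P2 against P0 cells, 83 of the 96 member probe sets rose and 1 fell, while 33.6% of all probe sets tested rose and 25.8% fell. A call here is an adjusted p under 0.05 in limma, a linear model fitted over all probe sets with Benjamini-Hochberg adjustment. The median log2 fold change of the members was 0.94, a 1.92-fold difference, with the middle 50% between 0.57 and 1.35. Over all probe sets tested the median was 0.07. A rise of log2 1 or more, which is 2-fold, was found in 42 members, against 14.4% of all probe sets. Every P2 array lay above every P0 array in 84 members, against 36.8% of all probe sets.

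**Figure D1:**
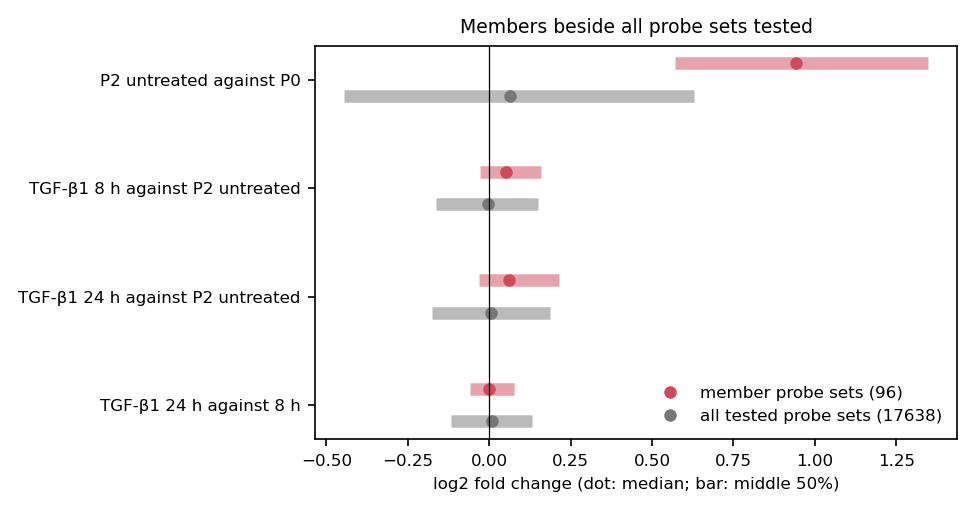
Log2 fold changes of the 96 member probe sets (red) and of all 17638 tested probe sets (grey) in the 4 comparisons, as medians (dots) and the middle 50% (bars). The members' bar for untreated P2 against P0 runs from 0.57 to 1.35 with its median at 0.94, while the medians for TGF-β1 lie at 0.05 and 0.06.

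Counted by gene, each by the probe set with the highest mean over the 12 arrays, 69 of 76 rose, 0 fell and 7 were not called, with a median of 0.95. Of all 6014 genes with 1 symbol, 42.1% rose and 1457 genes fell, and their median log2 fold change was 0.20. Set against each gene's own mean over the 12 arrays, the median member stood at -0.73, -0.87 and -0.67 in the 3 P0 arrays and at 0.22, 0.24 and 0.15 in the 3 untreated P2 arrays. The P0 arrays were therefore the low ones, and the groups did not overlap in this median. Of the 69 genes, 64 were called under every alternative processing that tested them. The proliferation genes moved with the members, with 13 of 14 rising, and the macrophage markers moved against them, with 10 of 11 falling. The part of either in the members' levels was not tested.

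**Figure D2:**
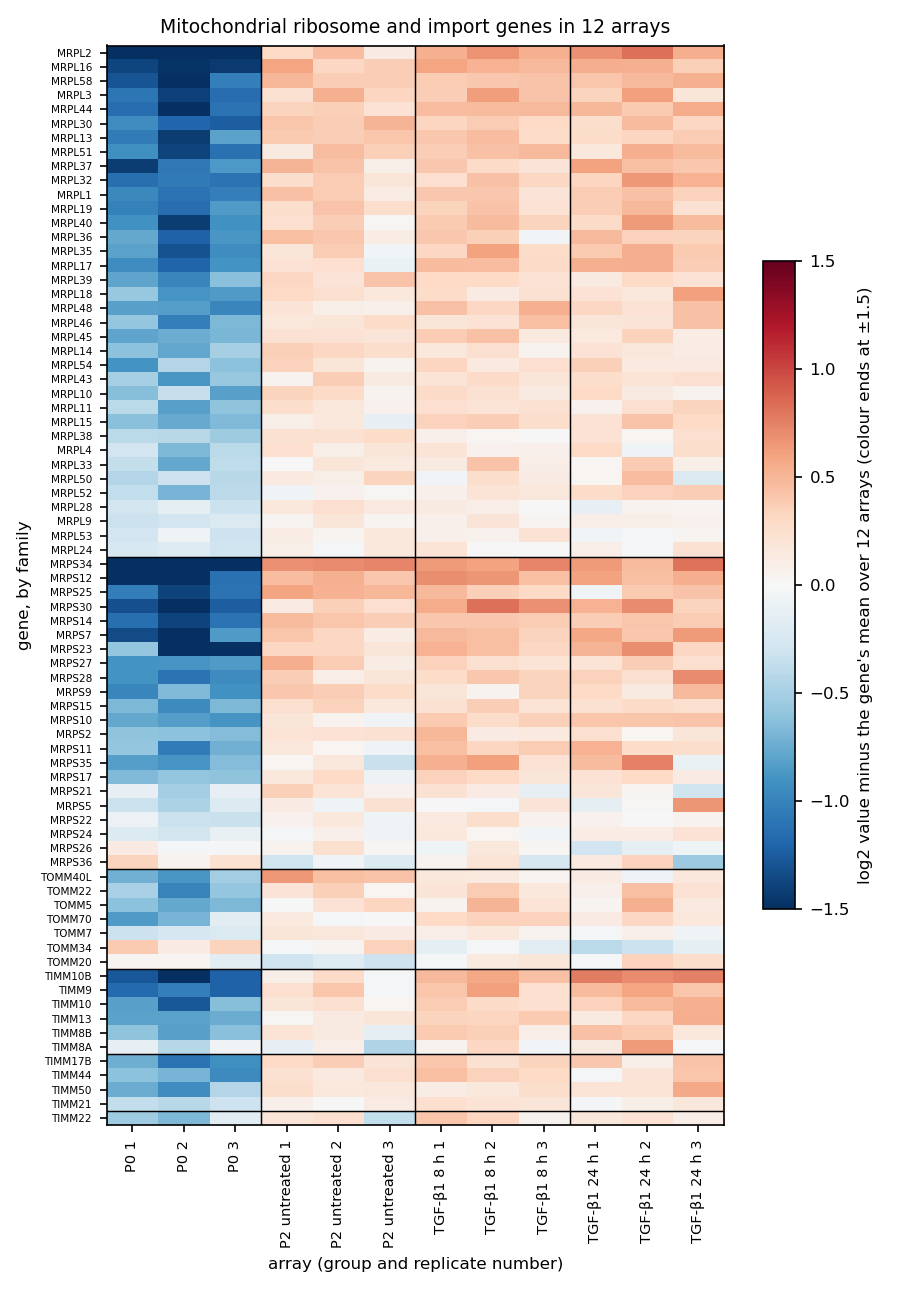
Log2 value of each of the 76 genes minus its own mean over the 12 arrays, with genes in rows by family and arrays in columns by group. The 3 P0 columns are blue for nearly all genes and the 9 P2 columns are pale red, with median deviations from -0.87 to -0.67 in P0 and from 0.15 to 0.34 in P2.

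For the large subunit the result was uniform in direction. All 36 MRPL genes rose in culture, by log2 0.32 to 1.86 with a median of 1.00, where 42.1% of all 6014 genes rose. In all 36 the untreated P2 arrays lay above the P0 arrays, against 2743 of all 6014 genes. MRPL2, which lies in the peptidyl transferase core where peptide bonds form, read 7.50, 7.69 and 7.66 in the P0 arrays and 9.48, 9.64 and 9.31 in untreated P2. It rose by log2 1.86 (SE 0.12, limma adjusted p = 1.04e-07), and its second probe set gave 1.74. No P2 array came near the P0 range.

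MRPL16, a core protein near the site where transfer RNAs enter, read 7.72, 7.63 and 7.66 in P0 and 9.68, 9.41 and 9.47 in untreated P2, a rise of 1.85 (SE 0.11). MRPL58, a peptidyl-tRNA hydrolase that became a fixed part of the large subunit and can free stalled peptides, read 7.70, 7.42 and 7.97 against 9.49, 9.37 and 9.36, a rise of 1.71 (SE 0.13). MRPL3, another protein close to the peptidyl transferase centre, read 9.41, 9.10 and 9.35 against 10.72, 11.03 and 10.81, a rise of 1.57 (SE 0.14). Its second probe set rose by 1.38, and the third, dim in P0, at least 1.36-fold. In these 3 genes, too, no P0 array reached the lowest P2 array.

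At the other end of the large subunit stood MRPL24 and MRPL53. MRPL24 read 5.84, 5.88 and 5.78 in P0 and 6.16, 6.06 and 6.23 in untreated P2, a rise of 0.32 (SE 0.11, limma adjusted p = 0.0238). MRPL53 read 10.39, 10.60 and 10.36 against 10.79, 10.71 and 10.82, a rise of 0.32 (SE 0.10, limma adjusted p = 0.0164). Neither pair of groups overlapped, but both calls depended on the scaling and on single arrays. After median centring the rises were 0.24 for each and neither was called (limma adjusted p = 0.0710 for MRPL24 and 0.0634 for MRPL53). The MRPL24 call was also lost without P0 replicate 3 (limma adjusted p = 0.0677), untreated P2 replicate 1 (0.0587) or untreated P2 replicate 3 (0.0785). The MRPL53 call was also lost without P0 replicate 3 (0.0574) or untreated P2 replicate 3 (0.0512).

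The small subunit held both the largest rise and most of the exceptions. Of the 22 MRPS genes 18 rose, by a family median of 0.95 with values from -0.39 to 2.72. MRPS34, a small-subunit protein needed to keep the ribosomal RNA of that subunit stable, read 8.48, 8.12 and 8.84 in the P0 arrays and 11.18, 11.20 and 11.22 in untreated P2. This was the largest rise among the 76 genes, at log2 2.72 (SE 0.16, 6.59-fold, limma adjusted p = 5.31e-08). The P0 arrays were more spread than the P2 arrays, and the groups did not overlap.

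MRPS12, which sits at the decoding centre where codon and anticodon are matched, read 7.51, 7.11 and 8.04 in P0 and 9.62, 9.69 and 9.57 in untreated P2. It rose by 2.07 (SE 0.19, limma adjusted p = 1.53e-06), and its second probe set rose by 0.97. The third, whose P0 mean was not above the reporter control level, rose at least 2.36-fold, so the size of the rise depends on the probe set. MRPS25, whose loss of function is known from a mitochondrial disease, read 8.52, 8.17 and 8.45 against 10.15, 10.08 and 10.05, a rise of 1.71 (SE 0.14). MRPS30, named for the small subunit but found in the large one, read 5.99, 5.51 and 6.08 against 7.44, 7.67 and 7.56, a rise of 1.70 (SE 0.16). All 3 genes showed P2 arrays above every P0 array.

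MRPS23, also a subunit of the small particle, had a P0 mean of 4.14, under 4.58, the 95th percentile of the reporter control probe sets. Its P0 level was thus not above background. Its untreated P2 mean was 5.62, at least 2.04-fold higher (limma adjusted p = 8.8e-05). MRPS21 and MRPS22, of the small subunit as well, had the least firm calls in the family. MRPS21 read 10.64, 10.26 and 10.65 in P0 and 11.12, 10.98 and 10.83 in untreated P2, a rise of 0.46 (SE 0.16, limma adjusted p = 0.0259). MRPS22, a known disease gene, read 8.20, 7.97 and 7.96 against 8.35, 8.44 and 8.23, a rise of 0.30 (SE 0.11, limma adjusted p = 0.0330).

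The call of MRPS21 was lost without P0 replicate 2 (limma adjusted p = 0.109), untreated P2 replicate 1 (0.0920) or untreated P2 replicate 2 (0.0580), and after median centring (0.0757). That of MRPS22 was lost without P0 replicate 2 (0.0926), P0 replicate 3 (0.0997), untreated P2 replicate 1 (0.0746) or untreated P2 replicate 2 (0.119). With all arrays of both groups kept, the MRPS22 call was lost after quantile normalization (limma adjusted p = 0.125), after median centring (0.134) and with only the 2 groups in the fit (0.0708). The other 4 small-subunit names were not called. MRPS5 differed by 0.43 (SE 0.18, limma adjusted p = 0.0616), MRPS24 by 0.20 (SE 0.10, 0.104) and MRPS26 by 0.08 (SE 0.11, 0.580). MRPS5 was called with only the 2 groups in the fit (limma adjusted p = 0.0228) and with the replicate block over 12 arrays (0.0193), although the numbers did not pair P0 with P2 arrays, and MRPS24 was called with low values raised to the control level (0.0226). In MRPS5 and MRPS24 the P2 arrays still lay above the P0 arrays, and in MRPS26 the groups overlapped.

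MRPS36 had the lowest value of the family. It read 6.46, 6.18 and 6.34 in P0 and 5.82, 6.07 and 5.91 in untreated P2, a difference of -0.39 (SE 0.20, limma adjusted p = 0.120). All P2 arrays lay below the P0 arrays, although the test was not passed over 4 groups. With only the 2 groups in the fit it was (limma adjusted p = 0.0303). The protein named MRPS36 is now known as KGD4, a subunit of the 2-oxoglutarate dehydrogenase complex of the citric acid cycle rather than of the ribosome.

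**Figure D3:**
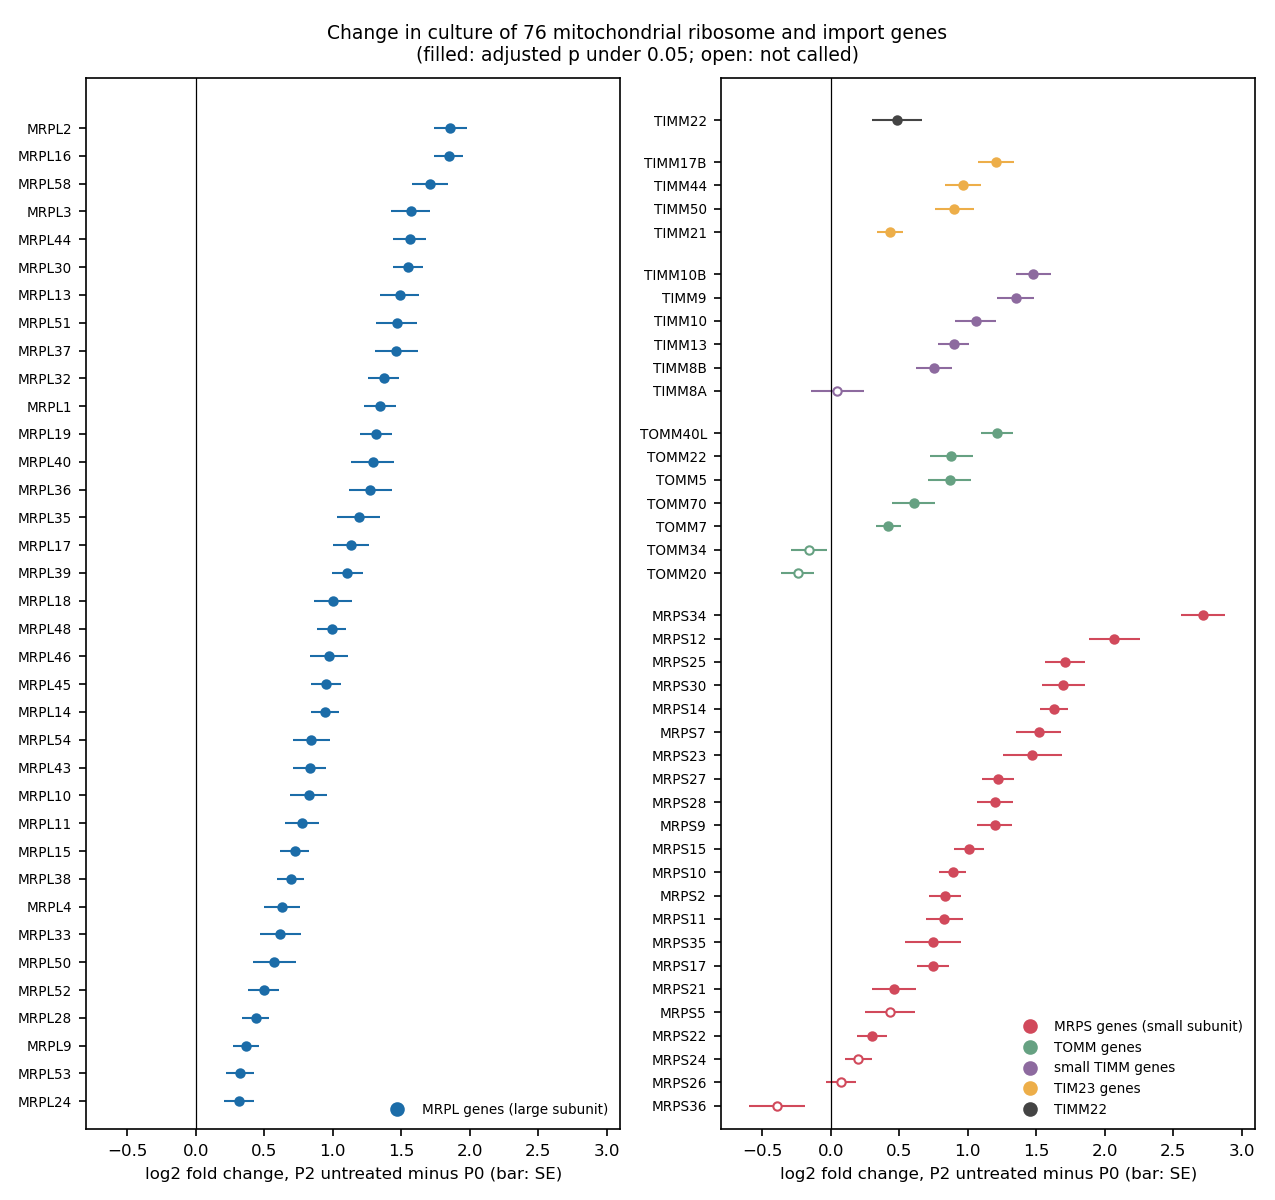
Log2 fold change of each of the 76 genes in untreated P2 against P0 cells (points, with SE as bars; 3 arrays per group), coloured by family; filled points passed limma at an adjusted p under 0.05. All 36 MRPL points are filled and right of 0, MRPS34 lies farthest right at 2.72, and the 7 open points lie between -0.39 and 0.43.

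The import genes that were not called were TOMM20 and TOMM34, by name of the TOM family, and TIMM8A of the small TIM chaperones. In the TOM complex 5 of 7 genes rose, with a family median of 0.61. TOMM40L, a relative of the channel protein of the complex, read 6.55, 6.40 and 6.75 in P0 and 7.92, 7.73 and 7.70 in untreated P2, a rise of 1.22 (SE 0.12, limma adjusted p = 3e-06). TOMM22, the central receptor that holds the complex together, read 11.08, 10.57 and 10.99 against 11.77, 11.93 and 11.60, a rise of 0.88 (SE 0.16). In both genes the groups did not overlap.

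The small subunits TOMM5 and TOMM7, which help to assemble the complex, rose by 0.87 (SE 0.16) and 0.42 (SE 0.09). TOMM70, the receptor for carrier proteins, rose by 0.61 (SE 0.16). TOMM20, the receptor that recognises presequences, did not follow them. It read 10.57, 10.57 and 10.37 in P0 and 10.23, 10.33 and 10.22 in untreated P2, a difference of -0.24 (SE 0.12, limma adjusted p = 0.106). Its P2 arrays all lay below its P0 arrays, and after quantile normalization the difference was -0.29 and passed the test (limma adjusted p = 0.0490). TOMM34, which is a cytosolic co-chaperone that delivers precursors and no part of the membrane complex, differed by -0.16 (SE 0.13, limma adjusted p = 0.307), with overlapping groups.

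Among the small TIM chaperones 5 of 6 rose, with a family median of 0.98. TIMM10B, which docks the chaperones onto the TIM22 complex, read 8.19, 7.86 and 8.25 in P0 and 9.54, 9.74 and 9.44 in untreated P2, a rise of 1.48 (SE 0.12, limma adjusted p = 9.02e-07). Its second probe set, with means of 4.11 and 4.42, was not above the reporter control level in either group.

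TIMM9 and TIMM10 form a chaperone ring together. TIMM9 read 9.06, 9.20 and 9.02 against 10.48, 10.64 and 10.21, a rise of 1.35 (SE 0.14), and TIMM10 rose by 1.06 (SE 0.15). The second ring pairs TIMM8A with TIMM13, and TIMM8B is a close relative of TIMM8A. TIMM13 rose by 0.90 (SE 0.11) and TIMM8B by 0.75 (SE 0.13). TIMM8A, the gene mutated in deafness-dystonia syndrome, read 8.95, 8.65 and 9.02 in P0 and 8.95, 9.18 and 8.62 in untreated P2. Its difference was 0.05 (SE 0.19, limma adjusted p = 0.854), and the groups overlapped. TIMM8A therefore stood apart from its partner TIMM13 in this comparison, though the difference between the genes' changes was not tested.

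All 4 TIM23 genes rose, with a family median of 0.93. TIMM17B, which lines the channel, read 8.21, 7.84 and 8.03 in P0 and 9.24, 9.32 and 9.13 in untreated P2, a rise of 1.20 (SE 0.13, limma adjusted p = 7.05e-06). TIMM44, which tethers the mitochondrial HSP70 motor to the channel, rose by 0.96 (SE 0.13), its second probe set by 1.57, and the third, dim in P0, at least 1.64-fold. TIMM50, the receptor that faces the intermembrane space, rose by 0.90 (SE 0.14), with 1.11 in its second probe set. TIMM21, which links TIM23 to TOM and to the respiratory chain, rose by 0.43 (SE 0.09). None of these 4 genes had overlapping groups.

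TIMM22, the channel of the carrier pathway, read 7.83, 7.69 and 8.20 in P0 and 8.56, 8.62 and 8.00 in untreated P2, a rise of 0.48 (SE 0.18, limma adjusted p = 0.0373). The groups overlapped, since untreated P2 replicate 3 lay below P0 replicate 3. The call was lost without P0 replicate 1 (limma adjusted p = 0.0982), P0 replicate 2 (0.136), untreated P2 replicate 1 (0.125) or untreated P2 replicate 2 (0.140). It was also lost after quantile normalization (0.0745) or median centring (0.0764), with only the 2 groups in the fit (0.0840) and with low values raised to the control level (0.0521).

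Of the 16 genes with more than 1 tested probe set, 11 had all of them called higher. The other 5 disagreed in call. MRPL52 had the only member probe set that fell: its second probe set read 6.29, 6.38 and 5.90 in P0 and 5.77, 5.75 and 5.74 in untreated P2, a fall by 0.44 (SE 0.14, limma adjusted p = 0.0145), whereas its brighter probe set rose by 0.49 (SE 0.11). This fall was lost without P0 replicate 1 (limma adjusted p = 0.0510) or P0 replicate 2 (0.0619). MRPL35 rose by 1.19 in its brightest probe set, gave 0.38, not called, in the second and was not above the reporter control level in the third. MRPL32 rose by 1.37 in 1 probe set and gave 0.13, not called, in the other. MRPL38 and TIMM10B rose in 1 probe set, and the second was not above the control level in P0 or untreated P2. Which of the probe sets reads the main transcript of its gene is not known from the files.

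Few of these genes were called under TGF-β1. All comparisons with untreated P2 below share its 3 arrays with the culture comparison, so a low or high reading there enters both with opposite sign. At 8 h, limma called 0 of the 96 member probe sets, where 5.07% of all probe sets were called, and 10 members had an unadjusted p under 0.05, against 17.4% of all probe sets. The median log2 fold change of the members was 0.05. At 24 h, limma called 4 members, 3 higher and 1 lower, where 8.49% of all probe sets were called. The members' median was 0.06, and 12 had an unadjusted p under 0.05, against 22.7% of all probe sets.

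The replicate numbers pair the P2 arrays, and a fit over the 9 P2 arrays with the number as a block called more. At 8 h this replicate block fit called 6 members higher and 1 lower, against 5.70% and 6.77% of all probe sets. At 24 h it called 10 higher and 3 lower, against 9.77% and 10.2%. The members' shares of calls were thus near the background or below it at both times, and what follows describes single genes. The block fit was not repeated with arrays left out.

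**Figure D4:**
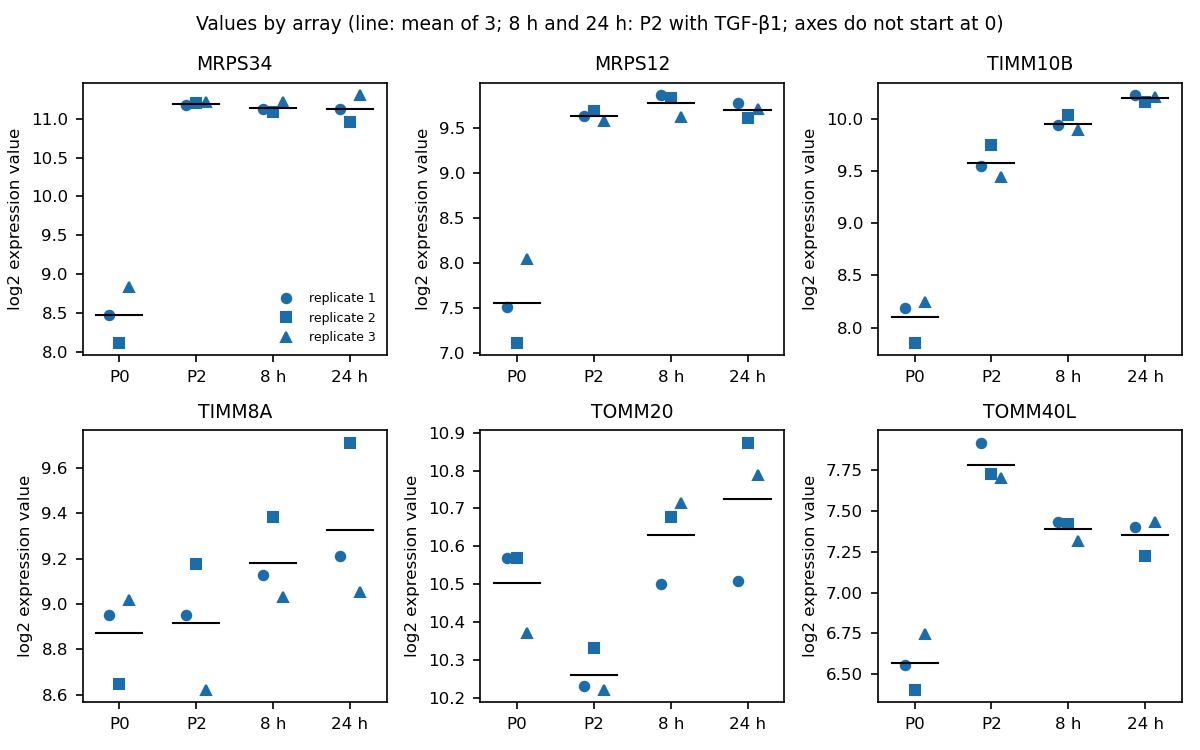
Log2 values of 6 genes in each of the 12 arrays, with the symbol shape giving the replicate number and lines at the means of 3; the vertical axes differ between panels and do not start at 0. TIMM10B rises from P0 (mean 8.10) through untreated P2 (9.58) to 24 h of TGF-β1 (10.20), TOMM20 is lowest in untreated P2 (10.26) and TOMM40L highest there (7.78), while MRPS34 and MRPS12 differ mainly between P0 and the rest.

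TIMM10B showed the largest change among the 76 genes at 24 h of TGF-β1. It read 9.54, 9.74 and 9.44 in untreated P2, 9.94, 10.03 and 9.89 at 8 h and 10.22, 10.16 and 10.21 at 24 h. At 24 h it was higher by 0.62 (SE 0.12, 1.54-fold, limma adjusted p = 0.0101), or 0.00386 with the replicate block, and all treated arrays lay above all untreated ones. The differences within the numbered pairs were 0.68, 0.42 and 0.76. At 8 h it was higher by 0.38, called with the block (limma adjusted p = 0.0358) and not without it (0.121). Leaving out any 1 array of the 2 groups kept the 24 h call, but leaving out the P2 arrays numbered 3 together ended it (0.55, limma adjusted p = 0.0965). The dim second probe set of TIMM10B differed by 0.01 at 8 h and 0.39 at 24 h. With the block neither was called (limma adjusted p = 0.986 and 0.184), and its pair differences at 24 h were 0.21, -0.05 and 1.00.

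TOMM20 read 10.50, 10.68 and 10.71 at 8 h and 10.51, 10.87 and 10.79 at 24 h, against 10.23, 10.33 and 10.22 in untreated P2. It was higher by 0.46 at 24 h (SE 0.12, limma adjusted p = 0.0367; 0.0123 with the block) and by 0.37 at 8 h (0.0380 with the block). All 3 pairs rose at both times, and the treated arrays lay above all untreated ones. The 24 h call was lost without untreated P2 replicate 1 (limma adjusted p = 0.103), 2 (0.0574) or 3 (0.119), and without 24 h replicate 2 (0.107) or 3 (0.0891). It was also lost after median centring (0.0536) and with only the 2 groups in the fit (0.114).

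MRPS10, a small-subunit protein, read 10.88, 10.76 and 10.65 in untreated P2, 11.10, 10.98 and 11.06 at 8 h and 11.12, 11.12 and 11.14 at 24 h. It was higher by 0.36 at 24 h (SE 0.10, limma adjusted p = 0.0421; 0.0248 with the block), with no overlap. TOMM40L read 7.92, 7.73 and 7.70 in untreated P2, 7.43, 7.42 and 7.32 at 8 h and 7.40, 7.22 and 7.43 at 24 h. It fell by 0.43 at 24 h (SE 0.12, limma adjusted p = 0.0450; 0.0171 with the block) and, with the block, by 0.39 at 8 h (limma adjusted p = 0.0330).

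TOMM40L was thus the channel relative that rose in culture and was lower with TGF-β1, although its 24 h mean of 7.35 was still above its P0 mean of 6.57. Without the block, the MRPS10 call at 24 h was lost when untreated P2 replicate 2 (limma adjusted p = 0.0929) or 3 (0.158), or 24 h replicate 1 (0.0956), 2 (0.0798) or 3 (0.0813), was left out. It was also lost after quantile normalization (0.0604) or median centring (0.0529) and with only the 2 groups in the fit (0.136). The TOMM40L call was lost without any 1 of the 6 arrays, with adjusted p from 0.0578 to 0.154, with no filter on low values (0.0545) and with only the 2 groups in the fit (0.112). Without the P2 arrays numbered 3, 0 members were called at 24 h by limma.

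The replicate block added further genes. At 24 h, MRPL2 was higher by 0.39 (SE 0.08, limma adjusted p = 0.0148), MRPL17 by 0.36 (0.0200) and MRPL52 by 0.32 (0.0229), all of the large subunit. The second probe sets of MRPL2 (0.33, limma adjusted p = 0.0638) and MRPL52 (-0.03, 0.857) were not called. In the small subunit, MRPS35 was higher by 0.42 (0.0273) and MRPS11 by 0.31 (0.0346). MRPS35 had pair differences of 0.44, 0.58 and 0.24, and MRPS11 of 0.35, 0.25 and 0.33. Each of these 5 genes rose in 3 of 3 pairs.

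At 8 h the same fit called MRPS35 (0.50, limma adjusted p = 0.0212), MRPS30 (0.45, 0.0217) and MRPS11 (0.34, 0.0346) higher, with TIMM10B and TOMM20. MRPS30 had pair differences of 0.43, 0.47 and 0.44 at 8 h. At 24 h its difference was 0.28 and was not called (limma adjusted p = 0.0775). The weakest probe set of MRPS12 was also called at 8 h (0.34, limma adjusted p = 0.0452), while the gene's brightest probe set was not (0.14, 0.370).

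The small TIM chaperones, each by its brightest probe set, had positive values in 6 of 6 genes at both times. Their medians were 0.22 at 8 h and 0.29 at 24 h. Of all 6014 genes, 2852 had positive values at 8 h and 2889 at 24 h, with medians of -0.01. The 6 genes share the 3 untreated P2 arrays, so their values are not independent, and the family was not tested as a set. With the block, TIMM8A was called higher at 24 h by 0.41 (SE 0.10, limma adjusted p = 0.0235), with pair differences of 0.26, 0.53 and 0.43, and TIMM8B by 0.26 (SE 0.07, 0.0463), with 0.23, 0.26 and 0.29. TIMM9 (0.28, limma adjusted p = 0.0559), TIMM10 (0.30, 0.0664) and TIMM13 (0.22, 0.144) were not called. TIMM8A, not called between P0 and untreated P2, read 8.95, 9.18 and 8.62 in untreated P2 and 9.21, 9.71 and 9.05 at 24 h. These groups overlapped, and every array rose within its numbered pair.

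The block also called falls at 24 h besides that of TOMM40L. The co-chaperone TOMM34 read 7.04, 7.12 and 7.43 in untreated P2 and 6.67, 6.75 and 6.94 at 24 h, a fall by 0.41 (SE 0.11, limma adjusted p = 0.0362). The second probe set of MRPL33, a large-subunit gene, fell by 0.38 (0.0361), whereas its brighter probe set differed by 0.05 and was not called (0.726). The TIM23 genes and TIMM22 had no call in either fit at either time.

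Beside these calls, proliferation genes were lower at 24 h: their summed signal was 6551 to 10360 with TGF-β1 and 10820 to 13650 without, and CCNB2, TOP2A and TYMS fell, 3 of 14. The macrophage marker CD14 fell at 8 h (by 0.59) and 24 h (by 0.73), 1 of 11, and the summed macrophage signal was 859.6 to 1085 at 24 h. The endothelial transcription factor ERG rose by 1.10 at 8 h and 1.49 at 24 h, 1 of 13. Of the 12 fibroblast markers, FN1 rose and COL3A1 and FBLN1 fell at 24 h, and 0 were called at 8 h by limma, with 0 at an unadjusted p under 0.05. Over all 17638 probe sets tested, limma called 754 higher and 744 lower at 24 h, and 447 each way at 8 h. Single calls among 11 or 13 markers lie near these shares. The part of the cell markers in the members' values was not tested. The P2 arrays numbered 3 had low endothelial signal in all 3 P2 groups, at 1216, 1644 and 1802 against 3569 to 6233 in the other P2 arrays. Their summed signal of 3 measured muscle markers was high in untreated P2, at 482.6 against 106.5 and 83.37. It was also high at 8 h, at 249 against 79.74 and 69.32. At 24 h it was 73.44 against 56.96 and 61.7.

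Between 24 h and 8 h of TGF-β1, limma called 0 members, where 0.232% of all probe sets were called, with 1 member at an unadjusted p under 0.05, against 9.27% of all, and a median of 0.00. The replicate block fit called 0 as well, where 2.44% of all were called, with 5 members at an unadjusted p under 0.05. No difference in these genes between the times was therefore found, which does not show that the times are alike.

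Other genes of the same pathways were taken from lists and read in the same fit, where 42.1% of all 6014 genes rose in culture with a median of 0.20. Of 23 measured genes of mitochondrial translation and ribosome assembly, 15 rose and 0 fell in culture, with a median of 0.98. GTPBP10, a GTPase that helps to assemble the large subunit, rose by 2.27 (SE 0.12), TUFM, the elongation factor that carries transfer RNAs to the ribosome, by 2.11 (SE 0.13), and FASTKD2, an RNA-binding assembly protein, by 1.94 (SE 0.16). DAP3, a small-subunit protein without an MRPS symbol, rose by 1.59, while PTCD3, another, differed by -0.14 and was not called (limma adjusted p = 0.314).

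Of 10 mitochondrial aminoacyl-tRNA synthesis genes, 7 rose and 1 fell, with a median of 0.66. GARS, which charges glycine in both cytosol and mitochondria, rose by 2.28 (SE 0.13), and QRSL1 and GATB, subunits of the enzyme that makes mitochondrial glutaminyl-tRNA, rose by 2.00 and 1.20. IARS2, the isoleucine enzyme of mitochondria, fell by 0.32 (SE 0.11, limma adjusted p = 0.0243), a call lost without P0 replicate 2 (0.0804) or 3 (0.0547) or untreated P2 replicate 1 (0.0674) or 3 (0.0687). The only fall in this list was thus that of IARS2, which did not hold without those arrays.

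Of 20 import partners without a TIMM or TOMM symbol, 14 rose and 0 fell, with a median of 0.52. AGK, a lipid kinase that is also a TIM22 subunit, rose by 1.22 (SE 0.16), MTX2, of the outer-membrane sorting machinery, by 1.20 (SE 0.10), and TRAP1, the mitochondrial HSP90, by 1.11 (SE 0.21). HSPA9, the HSP70 of the import motor, rose by 0.54 and the folding chaperonin HSPD1 by 0.55. CHCHD4, which oxidises and traps small TIM proteins in the intermembrane space, rose by 0.50 in culture and was also higher with TGF-β1, by 0.44 at 8 h (limma adjusted p = 0.0315) and 0.57 at 24 h (0.00654). The 8 h call was lost without any 1 of its 6 arrays, with adjusted p from 0.0535 to 0.135, and with only the 2 groups in the fit (0.0807). The 24 h call was kept without any 1 array but lost with only the 2 groups in the fit (limma adjusted p = 0.0505) and without the P2 arrays numbered 3 (0.0574). Its mean log2 values in the order P0, untreated P2, 8 h and 24 h were 6.41, 6.91, 7.35 and 7.48.

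All 13 genes taken as markers of mitochondrial content rose, with a median of 0.95, close to that of the members. CS, citrate synthase, rose by 1.61, and the outer-membrane channels VDAC1 and VDAC2 by 1.56 and 1.41. With TGF-β1, limma called 0 of the 13 at either time, with 0 at an unadjusted p under 0.05 at 8 h and 1 at 24 h. Of all probe sets, 5.07% were called at 8 h and 8.49% at 24 h, with 17.4% and 22.7% at an unadjusted p under 0.05. A count of 0 calls among 13 genes lies near these shares of calls. Mitochondrial content itself was not measured.

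The regulators of mitochondrial gene expression did not move in 1 direction. Of 6 measured, 3 rose and 2 fell. SSBP1, which binds single-stranded mitochondrial DNA, rose by 1.80 (SE 0.12), TEFM, the mitochondrial transcription elongation factor, by 1.73 (SE 0.12), and the transcription factor YY1 by 0.38. The YY1 call was lost without P0 replicate 2 (limma adjusted p = 0.0714) or 3 (0.0883) or untreated P2 replicate 2 (0.0889) or 3 (0.0996), and after median centring (0.0689). MYC, a transcription factor known to drive ribosome and mitochondrial genes, fell by 1.78 (SE 0.20), from a mean of 11.57 to 9.80, and PPRC1, a PGC-1 related coactivator, fell by 1.39 (SE 0.12). TFAM, which packages and transcribes mitochondrial DNA, differed by -0.21 and was not called (limma adjusted p = 0.145). TEFM was higher with TGF-β1 as well, by 0.62 at 8 h (limma adjusted p = 0.0156) and 0.44 at 24 h (0.0497). The 8 h call was lost without untreated P2 replicate 3 (limma adjusted p = 0.0692) or 8 h replicate 1 (0.0596), 2 (0.0509) or 3 (0.0504). The 24 h call was lost without any 1 of its 6 arrays, with adjusted p from 0.0653 to 0.177, and under 4 alternatives that kept all arrays of both groups, from 0.0513 to 0.0981. Without the P2 arrays numbered 3, TEFM was called at neither time (limma adjusted p = 0.146 at 8 h and 0.266 at 24 h). With the replicate block, SSBP1 was higher by 0.36 at 8 h (limma adjusted p = 0.0371) and 0.39 at 24 h (0.0192). PPRC1 was higher by 0.42 (0.0353) and 0.40 (0.0300), and MYC by 0.47 at 24 h (0.0413). Without the block, limma called none of SSBP1, PPRC1 and MYC at these times. Of all probe sets, the block fit called 5.70% higher at 8 h and 9.77% at 24 h. PPARGC1A, NRF1 and GABPA were not analysed here.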

How the data were processed

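RNA of 12 samples was hybridised to Affymetrix porcine arrays. The authors deposited a log2 value for each probe set and array, made with GCRMA per the submitters' processing notes (no version). Scan dates and batches are unknown. Values were used as deposited. Gene names came from the platform annotation, which can be old; 75 of 76 gene IDs were found in a RefSeq gene table, all with the same symbol. The 64 reporter controls were left out. Means of the 4 groups were estimated together in R 4.3.3 with limma 3.58.1 (lmFit, eBayes, two-sided, 8 residual degrees of freedom), with Benjamini-Hochberg adjustment over 17638 probe sets. The number of arrays limits the precision, and the median SE of a member's log2 fold change was 0.130. The comparison of untreated P2 with P0 was also run on simulated data with independent noise in each array. That run did not cover the replicate pairing or the TGF-β1 comparisons.

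After group means were removed, P2 arrays with the same replicate number correlated at 0.348 to 0.679 (9 pairs), against -0.513 to 0.0796 for other numbers, so the numbers pair the P2 arrays; with P0 the same-number values were -0.0916 to 0.0158. A fit with the number as a block over 9 P2 arrays is therefore given beside the TGF-β1 results.

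The members and the gene lists were chosen with earlier results of these data known. Genes were named by rule: in untreated P2 against P0, the 4 largest called rises of each family, all falls, all genes not called and the member with the highest mean level of each family; for TGF-β1, all calls; and the 3 largest changes of each pathway list. Others named (MRPL24, MRPL53, MRPS22, MRPS23, DAP3, PTCD3, IARS2, YY1, CHCHD4, the named markers and genes called only with the block) were chosen after their values were seen. Alternatives were the filter on low values, quantile or median scaling, the replicate block, 2 groups only, another variance prior, low values raised to the control level, 1 probe set per gene, and each array left out.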

Additional observations from a re-analysis of the deposited data

How the results depend on the processing

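In culture, the count of 84 called members was 79 to 85 under every alternative that kept all member probe sets and all arrays or raised the filter (79 of 87 at a filter of log2 6), and 69 of 76 with 1 probe set per gene; without 1 array it was 80 to 83. The members' median of 0.943 was 0.863 after median centring and 0.905 to 0.953 without 1 array. With the replicate block over 12 arrays, culture had 85 calls, 8 h 0 and 24 h 5; over the 9 P2 arrays, the block gave 7 at 8 h and 13 at 24 h, and it changed no call between 24 h and 8 h.

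At 24 h, the 4 calls became 2 after median centring, 1 with only 2 groups, 7 with low values raised to the control level (1 at 8 h) and 0 without the P2 arrays numbered 3, a setting chosen after seeing the data. Without 1 array they were 1 to 2, with medians from 0.031 to 0.087; at 8 h they were 0, with medians from 0.033 to 0.089, and between 24 h and 8 h 0, with medians from -0.017 to 0.022. Over the 76 genes and the named genes of other lists, in all settings, 38 calls were gained, 90 lost and 0 reversed. The cause of these changes was not tested. With 3 arrays per group, differences near 0.3 on the log2 scale lay at the edge of what was called in culture. With TGF-β1, larger differences went uncalled without the block. At 8 h limma called 0 members, although the largest difference was 0.50, and at 24 h MRPL2, at 0.39, was not called (limma adjusted p = 0.0666). Probe sets under the control level of 4.58 give bounds only.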
